A study of Caenorhabditis elegans with 6 samples.

Results

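The 30 genes described here are the worm's scl and thn genes and lon-1. They were chosen by symbol among the 46748 genes of the count table: 24 genes named scl, 5 named thn, and lon-1. The families were picked from measured values, because scl-2 and thn-1 were among the largest rises of this comparison. The values of those 2 genes are therefore given as a description, with no p-value. Where counts of genes past the threshold include them, nothing is read from their part. RNA was sequenced from whole wild-type N2 hermaphrodites of Caenorhabditis elegans, taken 5 days after the L4 larval stage, in 2 groups of 3 libraries. The first group is labelled T25B9.1, for RNA interference against a predicted glycine C-acetyltransferase gene of threonine breakdown. The other is labelled L4440, the vector without an insert that serves as the usual control. All animals thus share strain, age and sex, and no transgene or mutation is named. Another label names T25B9.1 RNAi for all 6 libraries and was not used to group them. No label says that the libraries stem from separate cultures. The p-values therefore reflect only how far these samples scatter, which may be technical.

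The SCP/TAPS proteins are small, cysteine-rich, usually secreted proteins named after sperm-coating protein, the testis protein Tpx and plant pathogenesis-related protein 1. Nematodes have many of them, and parasitic species release related proteins into their hosts. In C. elegans, scl-1 is known from long-lived mutants of the insulin pathway. LON-1, also of the SCP/TAPS family, is made in the epidermis, where it restrains body length downstream of the BMP-like ligand DBL-1. The thaumatin-like proteins resemble plant pathogenesis-related protein 5, and worm genes of the family are known from studies of the response to bacteria.

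The libraries held between 25480225 and 38621940 counts. Levels are given in CPM, the counts scaled to a library of 1000000 normalised reads (TMM factors), and, between genes, in CPM per kilobase of exon. T25B9.1 itself had 219, 317 and 430 counts in the libraries labelled T25B9.1, against 90, 92 and 132 in those labelled L4440. It was thus not lower under its own RNAi label but higher (log2 1.73, SE 0.25). Its adjusted p was 0.00483 in edgeR's quasi-likelihood test, with Benjamini-Hochberg adjustment over all genes tested and a threshold of 0.05. It shares 24 bases with the opposite-strand gene T25B9.3. Directions below follow the labels, T25B9.1 over L4440, and would turn round if the labels had been exchanged. In RNA from whole animals, fewer cells of a type and less RNA per cell cannot be told apart.

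Most of the 30 genes were nearly silent in day-5 adults, and a handful carried almost all the reads. Only 10 reached the count needed for testing, which is about 10 counts in a library of median size in at least 3 libraries. They are 7 scl genes, thn-1, thn-2 and lon-1, and each reached it in all 6 libraries. Per length, thn-2 was the most abundant, with 337 ± 27.6 CPM per kilobase in libraries labelled T25B9.1 and 242 ± 20.4 in those labelled L4440 (SD, n = 3 each). Next came scl-2 with 119.2 ± 3.95 and 26.7 ± 4.79 CPM per kilobase, and then lon-1 with 24.6 ± 2.00 and 22.6 ± 0.68. Under the L4440 label the levels of scl-2 and lon-1 overlapped, whereas under the T25B9.1 label every scl-2 value lay above every lon-1 value. Levels of scl-5 were 14.4 ± 1.54 and 15.2 ± 3.47 CPM per kilobase, and those of thn-1 were 14.4 ± 7.20 and 2.54 ± 0.59. The remaining 5, scl-20, scl-3, scl-24, scl-27 and scl-12, had means under 7 CPM per kilobase in both groups. No tested gene's model overlaps another gene in the annotation.

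**Figure D1:**
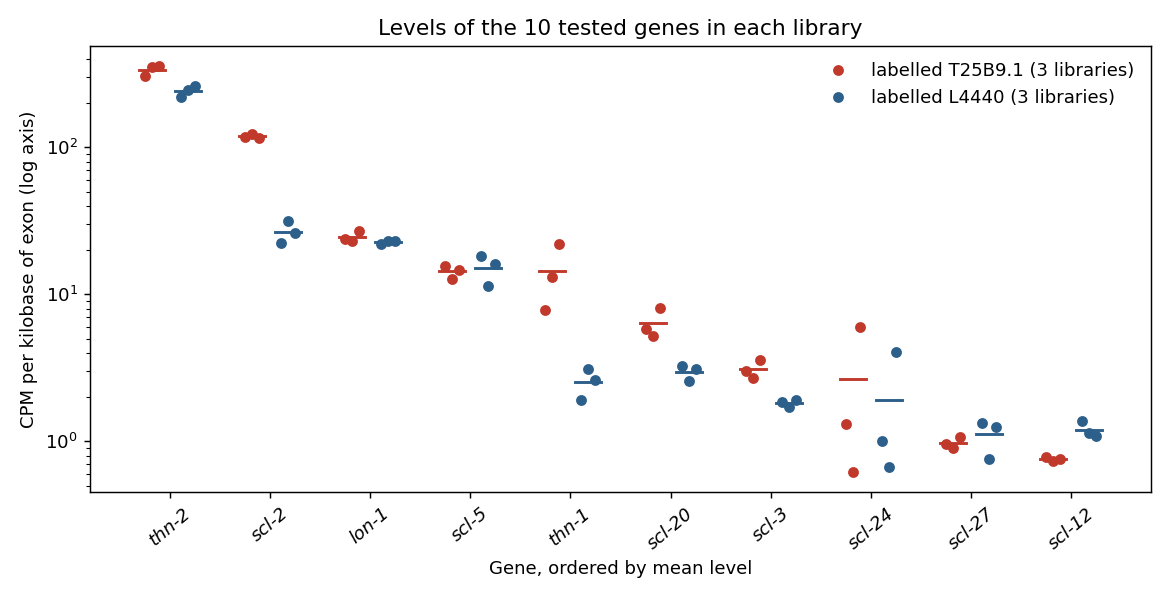
Level of each of the 10 tested genes in CPM per kilobase of exon (log axis), with 1 point per library and a bar at the group's mean. The points for scl-2 and thn-1 separate widely between the labels, those of lon-1 and scl-5 lie at about the same height, and scl-24 has 1 high library in each group.

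Of the scl genes, 10 form a cluster on chromosome IV (build WBcel235, 13047148 to 13072528, all on the plus strand), within 25381 bases. Along the chromosome they run scl-9, scl-10, scl-11, scl-1, scl-2, scl-3, scl-5, scl-6, scl-7 and scl-8. Other annotated genes lie among them. The protein-coding F49E11.7 and a pseudogene stand between scl-11 and scl-1, another pseudogene between scl-3 and scl-5, and the collagen gene col-131 between scl-5 and scl-6, besides 2 non-coding RNA genes, and none of these reached the count needed for testing. Within the cluster, scl-2 (WBGene00009895, 13057710 to 13059062) had 82.4, 86.6 and 81.3 CPM in libraries labelled T25B9.1, against 15.5, 22.2 and 18.3 CPM in those labelled L4440. The values under the T25B9.1 label lay close together and far above the others. The fold change was 4.49 (log2 2.17, SE 0.11), and it stayed between 4.09 and 4.88 whichever library was left out. A ranking held the 121 genes that rose past the threshold with no overlap and a mean of at least 50 counts. There scl-2 stood at place 4 and thn-1 at place 2. Large rises of these genes led to the choice of the families, so nothing is read from their places.

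The gene after scl-2 on the chromosome, scl-3 (WBGene00009896), begins 521 bases downstream. It had 2.34, 2.09 and 2.78 CPM in libraries labelled T25B9.1, against 1.44, 1.32 and 1.47 in those labelled L4440, with no overlap. It was 1.71-fold higher (log2 0.77, SE 0.17, edgeR adjusted p = 0.0341). The call rested on 369 reads over all libraries and was lost by DESeq2 (adjusted p = 0.0632). In edgeR it was also lost without T25B9.1 replicate 1 or 3 (adjusted p = 0.102 and 0.133) and without L4440 replicate 1, 2 or 3 (0.0742, 0.127 and 0.109). The next scl gene, scl-5 (WBGene00008027), had 10.7, 8.67 and 10.1 CPM under the T25B9.1 label and 12.4, 7.77 and 10.9 under L4440. The groups overlapped, and the edgeR adjusted p was 0.905 (log2 -0.08, SE 0.16). The differences in fold change between these neighbours were not tested.

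The other 7 genes of the cluster were too low to test. The gene before scl-2 is scl-1, which ends 358 bases upstream of it and had 0 counts in all 6 libraries. With 192286507 counts in all before normalisation, 0 counts allow a level of up to 0.0155 CPM (3 counts over all libraries; counting error only). The 2 other genes with no count anywhere were scl-15, on chromosome II, and scl-18, on chromosome IV. Further upstream, scl-11 had 5, 10 and 10 counts in libraries labelled T25B9.1, against 2, 1 and 2 in those labelled L4440, so the groups did not overlap. Summed over each group this is 0.269 CPM (95% exact Poisson interval 0.174 to 0.397) and 0.050 CPM (0.0162 to 0.117). It did not reach the count needed for testing. With no filter on low counts it passed (log2 2.34, SE 0.65, edgeR adjusted p = 0.0166), and it is named here after its values were seen. It passed also without T25B9.1 replicate 1. There it reached the count needed only in libraries labelled T25B9.1, where it is higher, so that pass is no separate support. The remaining 5, scl-6, scl-7, scl-8, scl-9 and scl-10, had at most 9 counts over all libraries. Over all libraries, the adjacent genes scl-1 and scl-2 thus had 0 and 9561 counts.

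**Figure D2:**
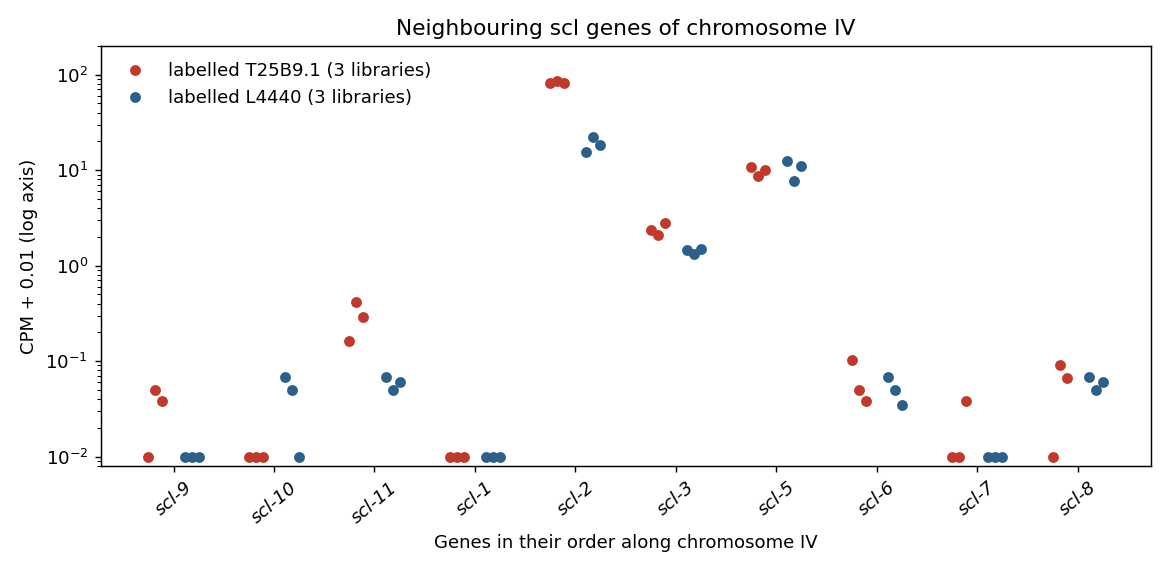
Level in CPM + 0.01 (log axis) of the 10 neighbouring scl genes, in their order along chromosome IV, with 1 point per library; points at 0.01 are libraries with 0 counts. The groups stand far apart at scl-2, closer together at scl-3 and interleaved at scl-5, and scl-1 sits at 0 in all 6 libraries.

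Reads of the scl family came mostly from scl-2 under the T25B9.1 label, and about evenly from scl-2 and the other scl genes under L4440. The 24 scl genes summed to 102.8, 103.8 and 107.4 CPM in libraries labelled T25B9.1, against 35.2, 35.6 and 38.6 in those labelled L4440. Of this sum, scl-2 made up 79.8 ± 3.85% under the T25B9.1 label and 51.3 ± 9.77% under L4440 (SD, n = 3 each). The ratio of scl-2 to scl-3, both per kilobase, was 38.96, 45.8 and 32.3 in libraries labelled T25B9.1, against 11.9, 18.6 and 13.8 in those labelled L4440. These sums, shares and ratios all include scl-2, whose values led to the choice of the families. Nothing is read from how they differ between the groups.

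**Figure D3:**
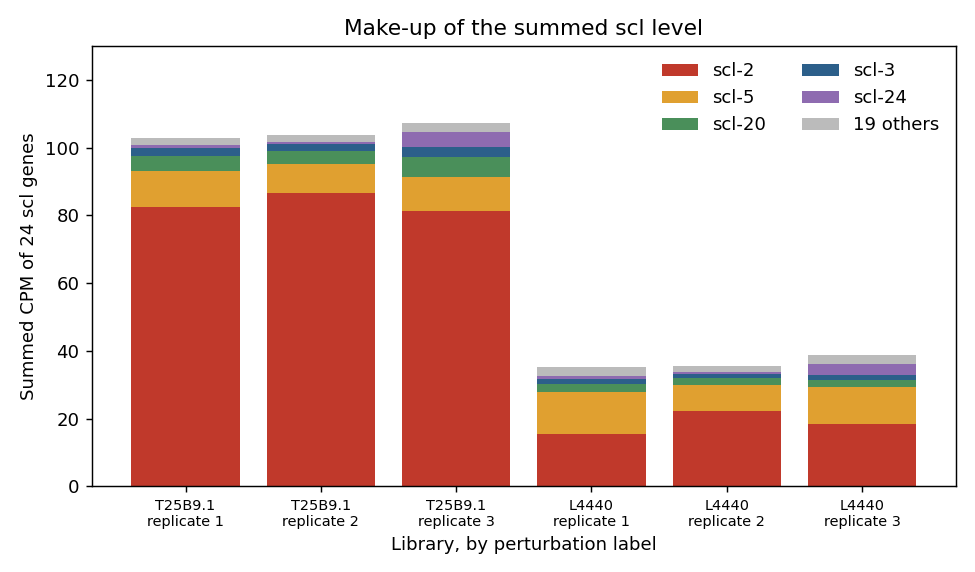
Summed CPM of the 24 scl genes in each library, stacked by gene, with the 3 libraries labelled T25B9.1 on the left. The scl-2 segment fills most of each left-hand bar, the scl-5 segment is of similar height in both groups, and that of scl-24 is widest in both replicate 3 libraries.

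Outside the cluster, scl-20 (WBGene00013972; chromosome V, 18732798 to 18734481, minus strand) rose as well. It had 4.24, 3.81 and 5.85 CPM in libraries labelled T25B9.1, against 2.36, 1.88 and 2.26 in those labelled L4440, and the groups did not overlap. The difference was 2.13-fold (log2 1.09, SE 0.19, edgeR adjusted p = 0.00827), and it passed in each of the alternatives tried, leave-outs included. Its neighbour scl-19, whose model ends 25 bases away on the other strand, had 0 counts in the libraries labelled T25B9.1 and 1 in those labelled L4440.

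Another pair on chromosome V is scl-12 and scl-13, whose models lie 949 bases apart on opposite strands. For scl-12 (WBGene00019178) the libraries labelled T25B9.1 had 0.554, 0.522 and 0.534 CPM and those labelled L4440 had 0.979, 0.801 and 0.771. The groups did not overlap, but at 13 to 34 counts per library the log2 fold change of -0.66 (SE 0.23) had an edgeR adjusted p of 0.211. The counts of scl-13 were 1, 2 and 1 under the T25B9.1 label and 5, 3 and 1 under L4440, too few to test. On the same chromosome, scl-27 had 0.800, 0.762 and 0.900 CPM under the T25B9.1 label and 1.12, 0.640 and 1.05 under L4440, which overlapped (log2 -0.22, SE 0.25, edgeR adjusted p = 0.816).

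The level of scl-24 (WBGene00008575; chromosome V, 17486334 to 17487241) was highest in replicate 3 of both groups. It had 1.01, 0.481 and 4.64 CPM in libraries labelled T25B9.1, against 0.777, 0.520 and 3.13 in those labelled L4440. The groups overlapped, and the 2 high libraries carry consecutive numbers in their titles. The edgeR adjusted p was 0.926, with a log2 fold change of 0.44 (SE 1.03) that became -1.02 without T25B9.1 replicate 3 and 1.69 without L4440 replicate 3. With a block of consecutive library numbers in the fit it was 0.43 with a smaller SE of 0.20, and did not pass either (edgeR adjusted p = 0.351). Its fellow on chromosome V, scl-25, too low to test, had 6, 5 and 18 counts under the T25B9.1 label and 2, 3 and 15 under L4440, again highest in both replicate 3 libraries. Exons of scl-25 overlap those of srh-112, on the other strand, by 408 bases, so its reads may be shared.

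**Figure D4:**
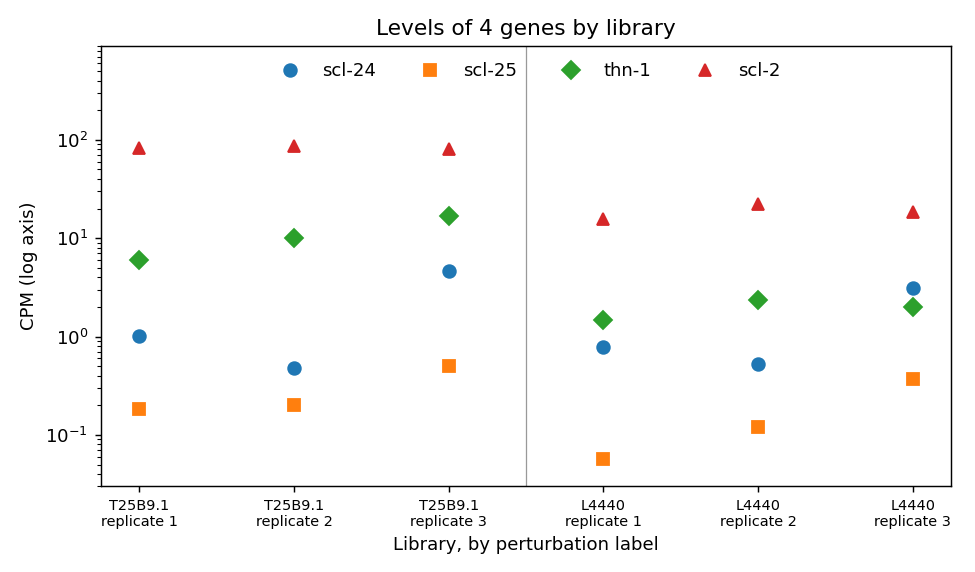
CPM (log axis) of scl-24, scl-25, thn-1 and scl-2 in each library, with the 3 libraries labelled T25B9.1 on the left. Points for scl-24 and scl-25 are highest in replicate 3 of both groups, whereas scl-2 and thn-1 separate by label.

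Both expressed thaumatin-like genes were higher in the libraries labelled T25B9.1, by very different amounts and at very different levels. They lie 2269 bases apart on chromosome IV, thn-1 (WBGene00009213) at 12380084 to 12380900 and thn-2 (WBGene00009215) at 12383170 to 12383974, both on the plus strand. For thn-1 the libraries labelled T25B9.1 had 6.00, 10.1 and 16.9 CPM and those labelled L4440 had 1.47, 2.36 and 1.99. The groups did not overlap, but the 3 values under the T25B9.1 label spread widely, with replicate 3 highest. The fold change was 5.74 (log2 2.52, SE 0.40) and lay between 4.15 and 7.06 when libraries were left out in turn. Its more abundant neighbour thn-2 had 231.7, 265.4 and 269.9 CPM under the T25B9.1 label, against 166.8, 186.8 and 197.1 under L4440. These groups did not overlap, and thn-2 was 1.39-fold higher (log2 0.48, SE 0.09, edgeR adjusted p = 0.0113). The call held in every alternative tried, with adjusted p-values up to 0.0485 when a library was left out.

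Nearly all thn reads came from thn-2. The 5 thn genes summed to 238, 276 and 287 CPM under the T25B9.1 label and to 168, 189 and 199 under L4440. Of that sum, thn-2 held 95.9 ± 1.70% and 98.9 ± 0.19% (SD, n = 3 each). Per kilobase, thn-2 exceeded thn-1 by 39, 26.6 and 16.1 times in libraries labelled T25B9.1, against 114.6, 79.8 and 99.95 times in those labelled L4440. This ratio includes thn-1, whose values led to the choice of the families, so nothing is read from its difference between the groups. The other members were barely detected. Over the 3 libraries of each group, thn-5 had 9 counts under the T25B9.1 label and 4 under L4440, thn-6 had 2 and 9, and thn-4 had 0 and 1.

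The body-length gene lon-1 (WBGene00003055; chromosome III, 5474476 to 5478005, plus strand) did not pass the test. It had 27.9, 27.3 and 31.6 CPM in libraries labelled T25B9.1, against 25.7, 27.02 and 27.05 in those labelled L4440. Although the groups did not overlap, the difference was small (log2 0.12, SE 0.08, edgeR adjusted p = 0.613). A further list of 18 tested genes held DBL-1 pathway and other SCP/TAPS genes, apart from cup-4, also listed below as a coelomocyte marker. Of these, 1 passed and 17 did not, with a median log2 fold change of 0.06. Of all 13494 tested genes, 3.42% passed. None of the 18 was lower past the threshold by edgeR, DESeq2 or limma-voom. At an unadjusted edgeR p under 0.05, 1 was lower, which was cup-4 (log2 -0.45, SE 0.18). The gene that passed was sma-10, a membrane protein gene that promotes signalling by the BMP receptors, with 18.1 ± 0.50 CPM under the T25B9.1 label and 13.1 ± 1.08 under L4440 (log2 0.46, SE 0.09, edgeR adjusted p = 0.0188). Its call was lost in 4 of 6 leave-outs (without T25B9.1 replicate 1 or 2 and L4440 replicate 2 or 3), with adjusted p-values up to 0.0965. The next smallest p belonged to crm-1, a gene of a secreted modulator of the pathway, with 33.4 ± 1.69 CPM under the T25B9.1 label and 28.3 ± 2.02 under L4440 (log2 0.24, SE 0.08, edgeR adjusted p = 0.184). The ligand gene dbl-1 had 3.00 ± 0.20 and 2.404 ± 0.318 CPM (log2 0.31, SE 0.15, edgeR adjusted p = 0.444). Of the SCP/TAPS genes outside the named families, vap-1 had an edgeR adjusted p of 0.811 (log2 -0.31, SE 0.34), and vap-2 was too low to test.

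Of the 8 tested genes other than scl-2 and thn-1, 3 were higher past an edgeR adjusted p of 0.05 (scl-3, scl-20 and thn-2). The other 5 did not pass. Over all 13494 tested genes, 3.42% passed, 1.13% higher and 2.29% lower. With scl-2 and thn-1 the count was 5 of 10. Since these 2 led to the choice of the families, nothing is read from that count. By edgeR 0 of the 10 were lower, and 0 by DESeq2 and by limma-voom; at an unadjusted p under 0.05 edgeR had 1 lower, scl-12. Of the 3 calls other than scl-2 and thn-1, those of scl-20 and thn-2 held in every alternative tried and that of scl-3 did not. The count of 5 became 3 without L4440 replicate 1, 2 or 3, each in turn, where both scl-3 and thn-1 missed the threshold. With no filter on low counts it was again 5, with scl-11 past the threshold and thn-1 not. The median log2 fold change was 0.46 over the 10 genes, 0.28 without scl-2 and thn-1, and 0.01 over all tested genes. In 6 of the 10, every library labelled T25B9.1 lay above every library labelled L4440, as in 8.29% of all tested genes. In 1, scl-12, every one lay below, as in 9.60%. Without scl-2 and thn-1, 4 of 8 lay above and 1 of 8 below, and nothing is read from the count that includes them.

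**Figure D5:**
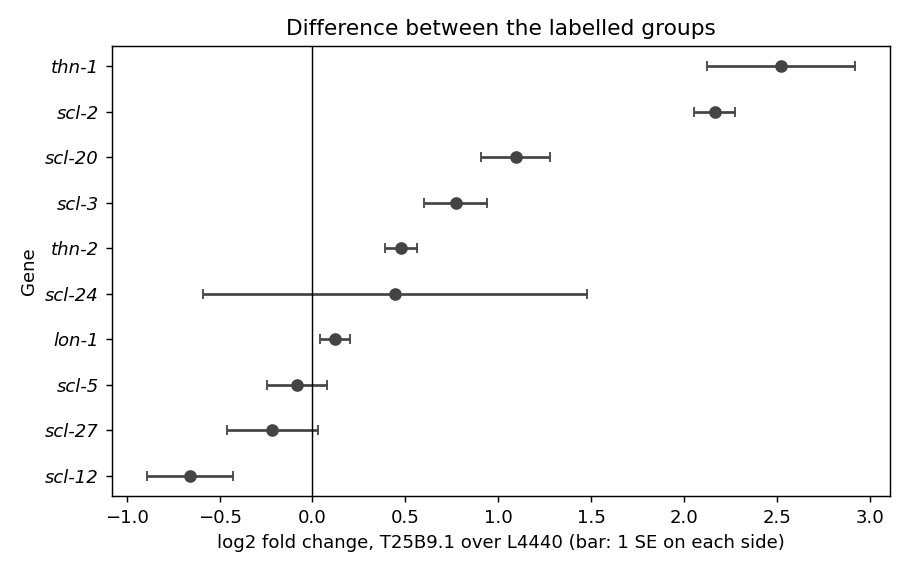
log2 fold change, T25B9.1 over L4440, of the 10 tested genes, with bars of 1 SE on each side. Estimates for thn-1 and scl-2 exceed 2, those of scl-20, scl-3 and thn-2 lie between 0.48 and 1.09, and the bar of scl-24 is the widest.

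Calls among genes of the insulin pathway, the setting in which scl-1 is known, went in both directions. Among 20 tested genes of insulin signalling and of DAF-16 output, 3 were higher under the T25B9.1 label, 2 were lower and 15 did not pass, beside 1.13% higher and 2.29% lower over all tested genes. The median log2 fold change of the 20 was 0.08, over genes that differ in role and in direction. The insulin-like peptide gene ins-7 had 9.93 ± 1.24 CPM and 5.31 ± 1.02 (SD, n = 3 each; log2 0.91, SE 0.16, edgeR adjusted p = 0.00841). The lysozyme gene lys-7 was higher too (log2 0.93, SE 0.16, edgeR adjusted p = 0.00746), and so was dod-3 (log2 0.53, SE 0.12, edgeR adjusted p = 0.0313). The call of dod-3 was lost in 5 of 6 leave-outs, all but the one without L4440 replicate 2, with adjusted p-values up to 0.105. Lower were fat-7, a delta-9 fatty acid desaturase gene (log2 -1.01, SE 0.11, edgeR adjusted p = 0.000851), and dod-17 (log2 -1.05, SE 0.13, edgeR adjusted p = 0.00119). The receptor and kinase genes of the pathway did not pass.

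Of 22 tested genes of immune signalling and its effectors, 2 passed, both higher and both low in level, beside 1.13% higher over all tested genes. The median log2 fold change of the 22 was 0.01. By edgeR 0 were lower, 1 by DESeq2 and 0 by limma-voom, with 4 lower at an unadjusted edgeR p under 0.05. The invertebrate-type lysozyme gene ilys-3 had 1.13 ± 0.46 CPM under the T25B9.1 label and 0.242 ± 0.071 under L4440 (log2 2.20, SE 0.37, edgeR adjusted p = 0.00776). The C-type lectin gene clec-60 had 0.780 ± 0.225 and 0.251 ± 0.068 CPM (log2 1.66, SE 0.34, edgeR adjusted p = 0.0207). It passed in 1 of 6 leave-outs, the one without T25B9.1 replicate 2, with adjusted p-values up to 0.0882. The PMK-1 kinase genes and the lysozyme genes lys-1, lys-2 and lys-8 did not pass. The abundant lysozyme gene lys-7, counted above in the insulin list and not among the 22, did pass. It had 2229 ± 203.5 CPM under the T25B9.1 label and 1169 ± 256.8 under L4440 (SD; edgeR adjusted p = 0.00746).

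Tissue markers were summed for each library, since whole animals hold every tissue, and each list was detected. The 7 matched intestine markers summed to 323 to 351 CPM in libraries labelled T25B9.1, against 398 to 430 in those labelled L4440. Most of that gap came from pgp-1, with 37.95 ± 2.501 CPM under the T25B9.1 label and 90.2 ± 15.0 under L4440. The other 6 summed to 283.5, 311.7 and 301.4 CPM under the T25B9.1 label and to 302.0, 336.5 and 324.4 under L4440, which overlapped. By the test pgp-1 was lower (log2 -1.25, SE 0.12, edgeR adjusted p = 0.000403) and ifb-2, of the intestinal intermediate filaments, higher (log2 0.74, SE 0.08, edgeR adjusted p = 0.000771). The 8 pharynx markers summed to 55.2 to 69.4 CPM under the T25B9.1 label and 40.8 to 56.1 under L4440, which overlapped. The median log2 fold change of the 6 tested pharynx markers was 0.40, against -0.11 to 0.07 for the other tissue lists. Sums likewise overlapped between the groups for muscle (472 to 668 and 447 to 690), neurons (263 to 296 and 280 to 287) and germline (7224 to 8578 and 6790 to 7891). They overlapped also for epidermis (249 to 263 and 260 to 268) and coelomocytes (4.87 to 5.54 and 5.44 to 7.49). Most of the epidermis sum was lin-26, with 203.4 CPM under the T25B9.1 label and 204 under L4440. Most of the neuron sum was snb-1, with 194.7 and 203.3 CPM. The other markers of these 2 lists thus weigh little in the sums. Of the 40 tested markers other than intestinal ones, 0 passed by edgeR, 1 by DESeq2 and 1 by limma-voom. In all, 5 had an unadjusted edgeR p under 0.05, 3 higher and 2 lower. The 3 higher were the pharynx markers myo-1 (log2 0.90, SE 0.24), tnt-4 (log2 0.84, SE 0.26) and myo-2 (log2 0.67, SE 0.28). The other tested pharynx markers, tni-4, pha-4 and phat-3, had log2 fold changes of -0.05, 0.12 and 0.13. What part the tissue markers' values have in the values of the scl and thn genes was not tested.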

How the data were processed

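Libraries were made from total RNA with an Illumina TruSeq kit, per the labels' protocols. Some kits of this name keep no strand information. The deposited values used here are whole-number counts of reads per gene. The submitters' processing notes name bcl2fastq 1.8.4, STAR 2.4.1d, featureCounts 1.4.6-p4 and build WBcel235. Strand, multi-mapping and overlap settings are not given in the sources used here, so reads of near-identical or overlapping genes are uncertain; sequences were not used here. The deposited RPKM table was not used: its divisor was not constant within a library.

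Libraries were grouped by perturbation label and numbered in accession order. Symbols matched 43693 of 46748 identifiers; positions and exon lengths came from Ensembl release 115. edgeR 4.0.16 (R 4.3.3; TMM, filterByExpr with a minimum count of 10, robust quasi-likelihood F-test) ran over 13494 genes with no covariate, Benjamini-Hochberg adjustment and calls at 0.05. It was tested on simulated data with known changes, drawn with no batch and no pairing of libraries, so that run does not bear on either. SE is the log2 fold change over the square root of F. With 3 libraries a group, exact permutation reaches 0.1 at best and was not used for single genes. Libraries of a group differed by 5.71 to 36.9 times sampling noise (chi-square per degree of freedom), and all were kept as separate samples. Intervals on counts cover counting error only.

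The members, lists and rule for named genes were chosen with earlier results of these data known. By that rule, full statistics are given for lon-1, scl-2, thn-1, genes past the threshold, those with a log2 fold change of at least 1 in size and the 6 most abundant per length. In addition, dbl-1 and vap-1 are named for their roles. Alternatives were a block of consecutive library numbers, DESeq2 1.42.0, voom in limma 3.58.1, upper-quartile or RLE factors, genes averaging 50 counts or more, no filter, and leaving out each library.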

Additional observations from a re-analysis of the deposited data

How the results depend on the processing

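The count of all genes past the threshold was 461 (152 higher, 309 lower). With no filter on low counts it was 719, of which 256 were higher, over 22684 genes. With a library left out it ran from 272 to 517, with 88 to 154 higher and 175 to 363 lower. The 5 scl and thn genes called higher, scl-2 and thn-1 among them, became 3 to 5 with a library left out. The gene thn-1 missed the threshold without T25B9.1 replicate 2 or any L4440 library. The call of scl-3 was lost in every leave-out other than that of T25B9.1 replicate 2. Without T25B9.1 replicate 1, scl-11 passed, having reached the count needed only in libraries labelled T25B9.1. They were 4 by DESeq2, without scl-3, and 5 with no filter, 4 of them the same genes, with scl-11 in place of thn-1. The median log2 fold change of the tested members, 0.46, was 0.62 over the 8 members averaging 50 counts or more, and 0.16 to 0.80 with a library left out, where 10 to 12 members were tested. In 2 genes the direction turned round, neither of which passed under any setting: scl-24 (-1.02 to 1.69 with a library left out, lowest without T25B9.1 replicate 3) and scl-5 (-0.26 to 0.042, highest without L4440 replicate 1).

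The labels give no replicate numbers that pair samples. With a replicate block of consecutive library numbers in the titles, 5 members were again called higher, and 597 of all genes passed. Deviations of consecutively numbered libraries correlated at -0.05, 0.12 and 0.22, and those of the other pairs of libraries at -0.21 to 0.06. These values do not settle whether the numbers pair the libraries, and the main test used no block. At this depth a gene with 0 counts in a library could have up to 0.0746 to 0.120 CPM there, which limits what can be said of the 20 members not tested.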

Other observations

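The levels of scl-24 stood out among all tested genes, a description made after its values were seen. The lower of its values in the 2 replicate 3 libraries was 3.09 times the highest in the other 4. The same ratio, with CPM values under 0.1 set to 0.1, was at least 2 for 3 of 13494 genes: scl-24, dod-21 (2.29) and nlp-30 (2.11), a neuropeptide-like antimicrobial peptide gene of the epidermis. For dod-21 the libraries labelled T25B9.1 had 0.0308, 0.923 and 2.11 CPM and those labelled L4440 had 0.0288, 0.200 and 2.34. For nlp-30 they had 0.308, 0.361 and 0.844 CPM, against 0.288, 0.400 and 0.945. The labels give no batch, and a cause was not tested.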
